A study of Mus musculus with 8 samples.

Results

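Receptors through which the hypothalamus reads hormonal and peptide signals of hunger and satiety were followed in the pooled hypothalamus RNA of high gainer and low gainer mice. They were 10 genes taken from the value table by symbol, by a rule that used no measured value but was written with earlier results of these data known: Lepr, Mc3r, Mc4r, Ghsr, Npy1r, Npy2r, Npy5r, Glp1r, Cckbr and Hcrtr2. Of these, 9 had a probe that named exactly 1 gene, with 1 probe each, among 13840 genes and 14411 such probes in all. No probe naming Cckbr, the brain-type receptor for cholecystokinin and gastrin, was used here. All mice were male C57BL/6J, an inbred strain, and both groups passed through the same diets, with 6 weeks of high-fat food, 2 weeks of low-fat food and 6 more weeks of high-fat food. The paper reports a schedule of this kind in which the low-fat food was restricted in amount. The labels give no age. High gainers were mice with high weight gain under this schedule and low gainers were mice with low weight gain. Each group was represented by a single RNA pool from 20 mice, and 4 arrays, numbered 1 to 4, were run on either pool. Arrays of a pool are technical replicates, so every p-value and interval below measures the spread between arrays and none of the spread between mice.

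Leptin, made by fat cells, acts on arcuate neurons through Lepr, a cytokine-type receptor that signals through JAK and STAT proteins. Opposed arcuate populations respond to it: Pomc neurons release alpha-MSH, the agonist of the melanocortin receptors Mc3r and Mc4r, and Agrp neurons release both AgRP, which blocks those receptors, and neuropeptide Y. Neuropeptide Y promotes feeding through Npy1r and Npy5r on target neurons, whereas Npy2r sits largely on the terminals of NPY neurons and restrains their release, and also binds peptide YY from the gut. Ghsr is the receptor for the stomach hormone ghrelin, Glp1r that for glucagon-like peptide of gut and brainstem, and Hcrtr2 that for orexins of the lateral hypothalamus.

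Values are deposited normalized intensities in arbitrary units, which compare 1 probe across arrays and not different probes. Across arrays, between 13657 and 16873 of 33012 probes had a value. Low gainer array 2 stood apart from the others. Its log2 intensities correlated across probes with the mean of the other arrays at r = 0.242, against 0.967 to 0.983 for the other 7, and its values are therefore given separately. Whether its column is in register with the probe names was not settled, so a value printed from it may not belong to the gene it is listed under. The tissue label was checked against marker genes. Of 19 hypothalamic markers, 16 had a probe and 9 had a value on all 7 other arrays (Avp, Oxt, Trh, Crh, Hcrt, Sst, Gal, Cartpt and Sim1), while Ghrh, Nkx2-1 and Lhx1 had none on any of them. Of 12 markers of cortex, striatum and thalamus, 8 had a probe and 7 of those had a value on all 7 arrays, Tbr1, Drd1 and Rgs9 among them. A signal from neighbouring forebrain therefore cannot be told apart from one of the hypothalamus. Of these 7 markers, 6 had a positive difference of high minus low gainers and 1 a negative one. The pools did not overlap for Neurod6, Drd2 and Rgs9, as was so for 4.77% of all probes tested. Their folds of high over low gainers were 0.628, 1.35 and 1.13, with adjusted p between 0.750 and 0.873 by limma. Of the anterior pituitary hormone transcripts, Gh, Prl and Cga differed between the pools. They were the 3 genes with a value on all 7 arrays among 11 pituitary markers, of which 8 had a probe. Their summed intensity was 8.30 to 10.4 in high gainers, against 0.837 to 1.38 on the low gainer arrays 1, 3 and 4. Lhb, another pituitary hormone gene, was alike in the pools where it had a value. It had 0.339, 0.416 and 0.381 on high gainer arrays 2 to 4, against 0.364 and 0.366 on low gainer arrays 1 and 4. Tshb had a value on high gainer array 3 alone. Tbx19, also on the pituitary list, had 0.133 and 0.387 on high gainer arrays 2 and 4 and no value in low gainers. The pituitary factor Pitx1 and the receptor Ghrhr had no value on any of the 7 arrays.

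Of the 9 receptors with a probe, Npy2r was the 1 with a value on all 7 arrays. This is 11.1% of the receptors, against 43.9% of all probes naming 1 gene. Another 4 receptors (Mc4r, Npy1r, Npy5r and Glp1r) had a value on 1 to 3 of the 7 arrays, and the other 4 (Lepr, Mc3r, Ghsr and Hcrtr2) had no value on any of them. Among all probes naming 1 gene, 34.6% had a value on 1 to 6 of the 7 arrays and 21.4% on none. An empty cell is not a level of 0. The methods counted a feature as detected when its signal over noise reached a lower limit and its quality flag stayed under an upper one, but which step emptied the cells is not given in the sources used here. No limit was therefore put on a receptor that had no value. The paper also reports qRT-PCR in individual high and low gainers for Lepr, Mc3r, Mc4r and Npy2r, and those values were not used here. In bulk RNA, few cells carrying a receptor and little of its RNA per cell cannot be told apart.

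**Figure D1:**
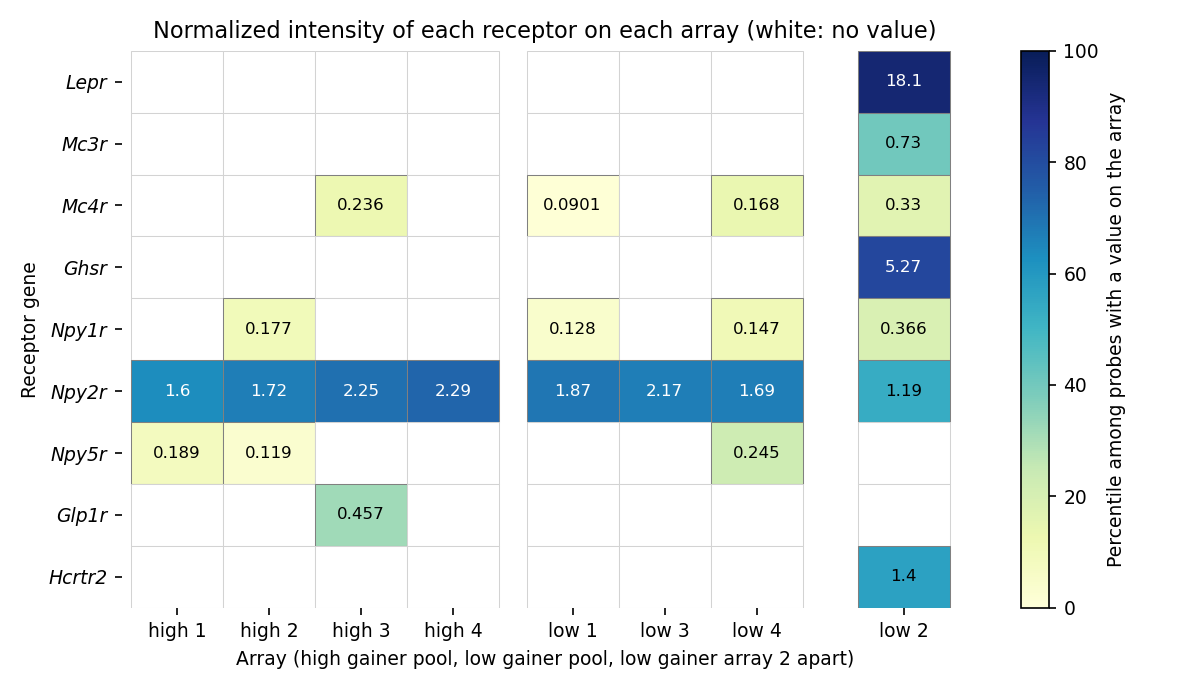
Deposited normalized intensity (number in each cell) of 9 receptor genes (rows) on each array (columns), with high gainer arrays left of low gainer arrays and low gainer array 2 set apart; colour is the percentile among probes with a value on that array and white cells have no value. Npy2r has a value in every column, and Lepr, Mc3r, Ghsr and Hcrtr2 have one on low gainer array 2 alone.

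For Npy2r, the Y2 receptor, the difference between the pools was smaller than the spread of the arrays within them. Its intensity was 1.60, 1.72, 2.25 and 2.29 on arrays 1 to 4 of the high gainers, against 1.87, 2.17 and 1.69 on arrays 1, 3 and 4 of the low gainers. High gainer arrays 3 and 4 lay above all 3 low gainer arrays, array 1 lay below all of them and array 2 lay between, so the pools overlapped. The mean was 1.97 ± 0.356 (SD, n = 4) in high gainers and 1.91 ± 0.242 (SD, n = 3) in low gainers. The log2 difference of high minus low gainers was 0.03 with a standard error of 0.21, a fold of 1.02 with a 95% interval from 0.745 to 1.41 and an adjusted p of 0.989. The test was limma on log2 intensities after quantile normalization, with p-values adjusted over the 11169 probes that had a value on all 7 arrays. The interval spans folds on both sides of 1, so no direction was settled with these 7 arrays. It is not a limit of detection, since calls were adjusted over all probes tested. Of these probes limma called 3, or 0.0269%, meaning an adjusted p under 0.05. The 3 were those of Gh, Prl and Cga, all higher in high gainers. No receptor was among them, and the unadjusted p of Npy2r was 0.877. Without low gainer array 1 limma called 171 probes, again with no receptor among them. The absolute log2 difference of all probes had a median of 0.17, and 10.9% of probes had a smaller one than Npy2r.

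The rank of Npy2r gave the same overlap. Among the probes with a value on an array, its percentile was 63.4, 67.0, 70.6 and 73.3 on arrays 1 to 4 of the high gainers, against 69.0, 67.0 and 66.8 on arrays 1, 3 and 4 of the low gainers. The means were 68.6 in high gainers and 67.6 in low gainers. On low gainer array 2 the intensity was 1.19 and the percentile 53.3, below those of all other arrays. Percentiles place a probe on its array and are not a level of the transcript against other transcripts, since probes differ in how well they bind.

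The other Y receptors gave few values. Npy1r, a main receptor for the feeding action of neuropeptide Y, had a value on 1 high gainer array, 0.177 on array 2, and on 2 low gainer arrays, 0.128 on array 1 and 0.147 on array 4. Its percentiles on these arrays were 10.1 in high gainers, and 3.91 and 10.7 in low gainers, at the dim end of each array. Npy5r, which also mediates feeding, had a value on 2 high gainer arrays, 0.189 on array 1 and 0.119 on array 2, and on 1 low gainer array, 0.245 on array 4. Its percentiles were 8.48 and 3.30 in high gainers and 22.7 in low gainers. Neither gene had enough values in both pools for a test.

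The melanocortin receptors were likewise measured rarely. Mc4r, the receptor whose loss causes obesity in mice, had a value of 0.236 on high gainer array 3, and of 0.0901 and 0.168 on low gainer arrays 1 and 4. The high gainer value is the highest of the 3 and stands alone in its pool. Its percentile was 12.3 in high gainers, and 0.983 and 13.6 in low gainers. Mc3r, the melanocortin receptor tied to nutrient partitioning, had no value on the 7 arrays. Glp1r had a single value, 0.457 on high gainer array 3, at percentile 31.9, and none in low gainers. Over the 10 values of the 4 partly measured receptors, intensity ran from 0.0901 to 0.457 and the median percentile was 10.4, against a median of 18.4 over all probes naming 1 gene that had a value on 1 to 6 of the arrays. Probes with a value on 3 of the 7 arrays, as Mc4r, Npy1r and Npy5r had, lay at a median percentile of 12.1 where present.

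The number of receptors with a value overlapped between the pools. The high gainer arrays held 2, 3, 3 and 1 of the 9 receptors, and low gainer arrays 1, 3 and 4 held 3, 1 and 4. Low gainer array 4, with a value for 62.5% of probes naming 1 gene, held the most of these 7 arrays, and low gainer array 3, with 51.2%, held Npy2r alone. High gainer array 4 also held Npy2r alone, at 60.9%.

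Low gainer array 2 held 7 of the 9 receptors although it had a value for 42.5% of probes naming 1 gene, the smallest share of the 8 arrays. With the doubt given above on whether its values belong to the genes listed, it was the array with a value for Lepr, 18.1 at percentile 94.3, for Ghsr, 5.27 at percentile 82.0, for Hcrtr2, 1.40 at percentile 57.3, and for Mc3r, 0.730 at percentile 40.4. It also gave 0.330 for Mc4r and 0.366 for Npy1r, each above the values of the other arrays, and none for Npy5r and Glp1r. Of the 3087 probes naming 1 gene that lacked a value on the other 7 arrays, 39.0% had one on this array, at a median percentile of 45.8 there. Probes measured on all 7 other arrays had a median percentile of 58.5 here, against 65.8 on those 7. Among probes with a value on 0 to 6 of the other arrays, the share with one on this array ranged only from 34.2% to 39.0%, and it was 48.6% for probes with a value on all 7. The level of Lepr in low gainers was therefore not read from this array.

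Receptors of the same families were also measured on few arrays. Of 10 such genes (Mc1r, Mc2r, Mc5r, Npy4r, Npy6r, Cckar, Hcrtr1, Gcgr, Gipr and Glp2r), 9 had a probe, 1 had a value on all 7 arrays, 3 on some and 5 on none. Cckar, the cholecystokinin receptor known best from gut and vagus, was the gene with all 7. Its intensity was 0.518, 0.552, 0.647 and 0.599 in high gainers, against 0.569, 0.432 and 0.389 on arrays 1, 3 and 4 of the low gainers. Low gainer array 1 lay within the high gainer range and the other 2 below it. The log2 difference was 0.26, with an interval from -0.26 to 0.78 and an adjusted p of 0.881 by limma. Together with the receptors named at the outset, 2 of 18 genes with a probe had a value on all 7 arrays, 7 on some and 9 on none. Hcrtr1, the other orexin receptor, had 0.197 on high gainer array 4, and 0.114 and 0.189 on low gainer arrays 1 and 4. Mc2r, the receptor for ACTH in the adrenal, had no value in high gainers, against 0.575 and 0.534 on low gainer arrays 1 and 4.

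**Figure D2:**
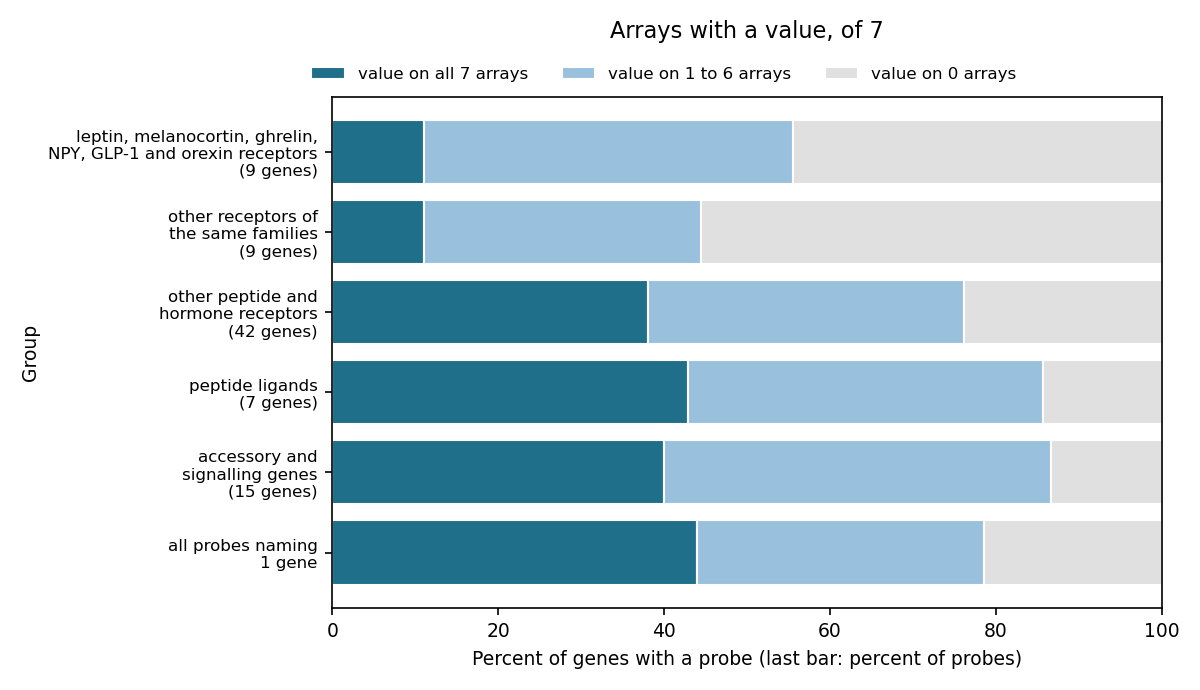
Percent of genes with a value on all 7, on 1 to 6 or on 0 of the arrays other than low gainer array 2, for 5 groups of genes and, in the last bar, for all probes naming 1 gene. The dark part is 11.1% in both receptor groups at the top and 43.9% in the last bar.

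The peptides that act on these receptors were measured more often than the receptors, with 42.9% of those with a probe on all 7 arrays. That is near the 43.9% of all probes naming 1 gene. Of 9 ligand genes, 7 had a probe and 3 (Npy, Cck and Hcrt) had a value on all 7 arrays, all with a negative difference. By limma none was called, and all 3 had an unadjusted p under 0.05, as did 6.48% of all probes tested. Npy was 1.504, 1.96, 1.46 and 1.38 in high gainers, against 1.62, 3.32 and 2.42 on arrays 1, 3 and 4 of the low gainers. High gainer array 2 lay above low gainer array 1, and the other high gainer arrays lay below all low gainer arrays. Its log2 difference was -0.58, with an interval from -1.09 to -0.07 and an adjusted p of 0.752 by limma. Hcrt, the orexin precursor, was 1.48, 1.73, 1.20 and 1.56 in high gainers, against 1.65, 2.56 and 2.18 in low gainers, array 2 left out. On the log2 scale after quantile normalization the pools did not overlap for Hcrt, as was so for 4.77% of all probes tested. Its log2 difference was -0.50 with an interval from -0.96 to -0.05, and its adjusted p was 0.755 by limma. Cck, the precursor of cholecystokinin, lay between 17.8 and 19.5 in high gainers, against 20.2 to 32.6 in low gainers. Its log2 difference was -0.42, with an interval from -0.76 to -0.07 and an adjusted p of 0.750 by limma. In the deposited values every low gainer array was thus above every high gainer array for Cck, and after normalization the pools overlapped. The intervals of these 3 genes are not adjusted for the number of probes. Without low gainer array 3, the highest for each of them among low gainer arrays 1, 3 and 4, the log2 difference was -0.31 for Npy (unadjusted p 0.197 by limma), -0.29 for Cck (0.111) and -0.33 for Hcrt (0.157). Of the 9 hypothalamic markers measured on all 7 arrays, Hcrt among them, 8 had a negative difference and the median was -0.23. Among 13 markers of glia and blood, 9 had a probe, 8 had a value on all 7 arrays and none lacked a value on every array. The summed intensity of the 8 was 319.7 to 389.0 in high gainers, against 345.7 to 444.5 in low gainers. Most of it was Ttr, with 257 to 296 in high gainers, against 284 to 391 on low gainer arrays 1, 3 and 4. The sum therefore does not describe the other markers of this list. In 3 of these 8 the pools did not overlap, with a fold of 2.22 for Mbp and 2.56 for Mag, both myelin genes, and of 0.455 for the globin gene Hba-a1, with adjusted p between 0.526 and 0.750 by limma. Mog, also a myelin gene, had a fold of 1.08 with overlapping pools and an adjusted p of 0.963 by limma. The part of these markers in the ligand values was not tested.

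**Figure D3:**
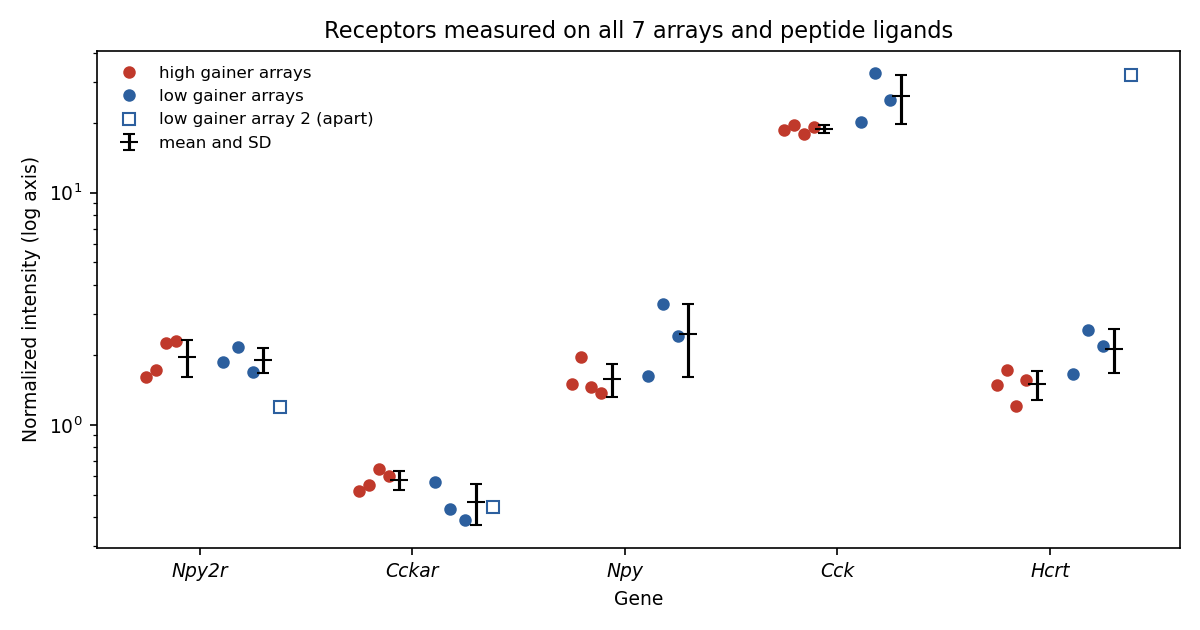
Deposited normalized intensity (log axis) of Npy2r, Cckar and 3 peptide genes, each point being an array: red for high gainers, and to their right blue for low gainer arrays 1, 3 and 4, bars for mean and SD, and low gainer array 2 as an open square where it has a value. Npy2r covers 1.60 to 2.29 in high gainers and 1.69 to 2.17 in low gainers, and the square of Hcrt is at 32.0.

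The other ligands were incomplete. Pomc, the precursor of alpha-MSH and of pituitary ACTH, was 1.48, 1.14, 0.735 and 0.888 in high gainers, against 0.208 on low gainer array 4 with no value on low gainer arrays 1 and 3. Every high gainer value was above that of low gainer array 4, while low gainer array 2, set apart, had 0.849, above high gainer array 3. The pituitary sum given above was likewise higher on every high gainer array, and its part in the Pomc values was not tested. Pyy, the gut peptide that binds Npy2r, had 0.197 on 1 high gainer array, and 0.120 and 0.155 on 2 low gainer arrays. Lep had 0.341 on high gainer array 3 and no value in low gainers, and Ghrl had none on any array. No probe naming Agrp or Gcg was used here.

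Proteins that work beside or below the receptors gave no call either. Of 20 accessory and signalling genes, 15 had a probe and 6 a value on all 7 arrays, 0 of them called in either direction by limma and 1 (Gnai2) with an unadjusted p under 0.05, against 6.48% of all probes. Gnai2, an inhibitory G protein subunit of the kind that Y receptors couple to, was 1.18, 1.35, 1.41 and 1.503 in high gainers, against 1.12, 0.602 and 0.863 on arrays 1, 3 and 4 of the low gainers. All high gainer arrays lay above all 3 low gainer arrays, and 4.77% of all probes tested likewise had pools that did not overlap. Its log2 difference was 0.67, with an interval from 0.18 to 1.15 and an adjusted p of 0.750 by limma. Gnas, the stimulatory subunit that melanocortin receptors and Glp1r couple to, was 48.0, 59.2, 62.4 and 67.2 in high gainers, against 58.3, 81.0 and 84.0 in low gainers, for its brightest probe. The log2 difference of that probe was -0.34 with an adjusted p of 0.787 by limma, and a dimmer probe of Gnas gave 0.10 with an adjusted p of 0.952. Ptpn1, a phosphatase that dampens the leptin receptor's JAK signal, had a log2 difference of 0.66 with a 95% interval that included 0 and an upper bound of 1.31. The value of Ptpn1 on low gainer array 3, 0.260, was below the 0.734 and 0.741 of the other low gainer arrays and the 0.715 to 0.921 of high gainers, and without that array the log2 difference was 0.21. Socs3, an inhibitor induced by leptin through STAT signalling, had -0.09 from -0.66 to 0.47, Gnao1, another G protein subunit, 0.36 from -0.14 to 0.86, and Leprotl1, a relative of a leptin receptor trafficking protein, 0.12 from -0.46 to 0.70. Jak2 had a value on high gainer array 1 alone and Stat3 on low gainer array 4 alone among the 7 arrays. The median over the 6 genes was 0.24, against -0.0024 over all probes tested.

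Among 49 other peptide and hormone receptors, 42 had a probe and 16, or 38.1%, had a value on all 7 arrays. By limma 0 were called, 0 had an unadjusted p under 0.05, and 7 differences were positive and 9 negative, with a median of -0.07. Vipr1, a receptor for vasoactive intestinal peptide, had the smallest p, with 0.923, 1.28, 1.40 and 0.923 in high gainers, against 1.36, 0.426 and 0.596 in low gainers, and a log2 difference of 0.63 from -0.06 to 1.32. It was 1.09 without low gainer array 1, with an adjusted p of 0.0525 by limma, and 0.33 without low gainer array 3. Adipor1, an adiponectin receptor, followed at -0.36 from -0.76 to 0.04. The neurotensin receptors had opposite signs, 0.34 for Ntsr1 and -0.27 for Ntsr2. Oprd1, the delta opioid receptor, had -0.35, and Il6st, the signal-transducing chain shared by receptors of the interleukin 6 family, had -0.17 from -0.51 to 0.17. Another probe of Il6st had no value on any array. The adjusted p of the 16 genes lay between 0.778 and 0.990 by limma.

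**Figure D4:**
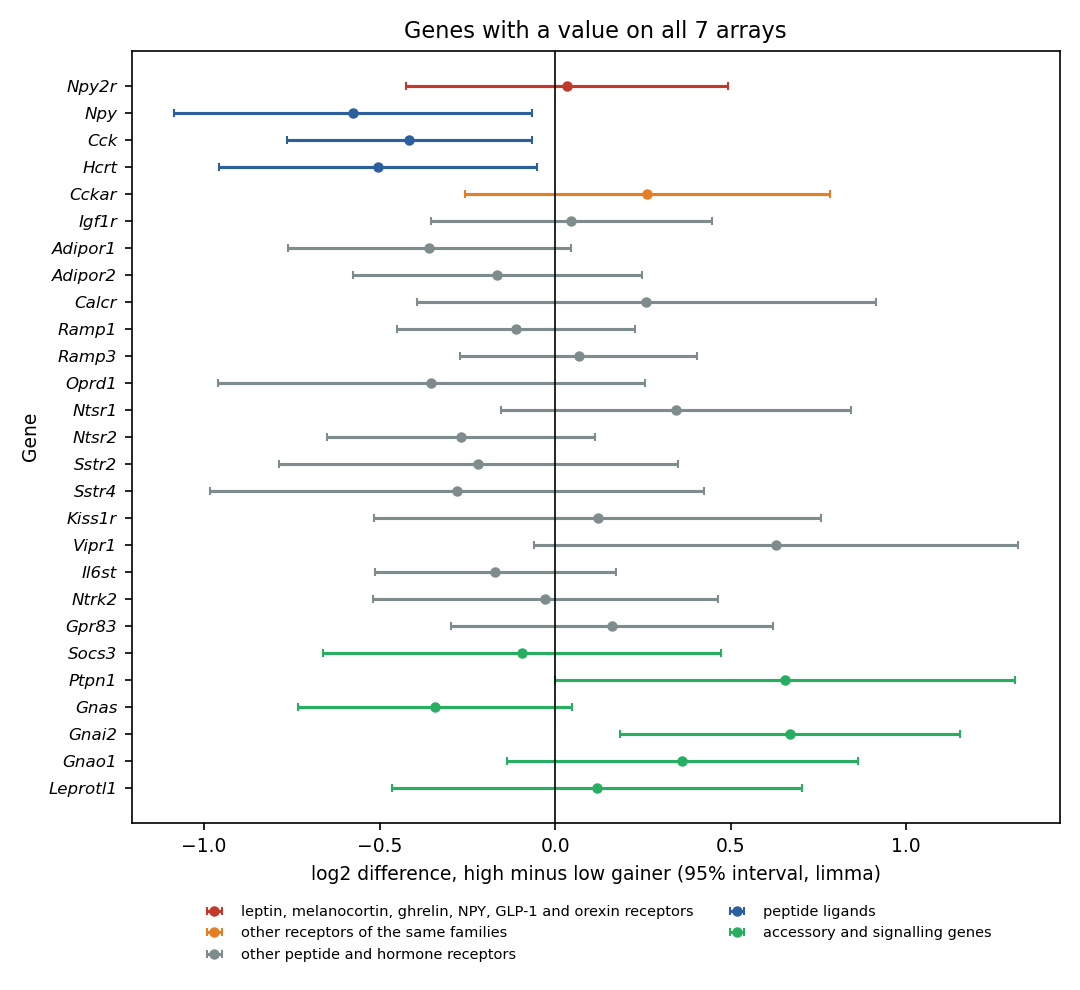
Log2 difference of high minus low gainers with its 95% interval by limma for 27 genes with a value on all 7 arrays, grouped by colour into receptors, ligands and signalling genes. Npy2r is at 0.03 in the top row, the 3 ligands lie between -0.58 and -0.42, and no gene was called at an adjusted p of 0.05.

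The genes whose log2 values ran most like those of Npy2r over the 7 arrays were Polr2k, an RNA polymerase subunit, at Pearson r = 0.989, Slc20a2, a phosphate transporter, at 0.977, and Drd5, a dopamine receptor, at 0.976. They were the closest of 6331 probes naming 1 gene, 40 of which had an r above 0.9. With 7 points from 2 RNA pools, these values describe the arrays. The log2 differences of the 3 genes were 0.06, 0.11 and 0.07.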

How the data were processed

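Hypothalamus total RNA was transcribed to digoxigenin-labelled cRNA and measured by chemiluminescence on 1-colour Applied Biosystems arrays. The authors normalized the signals by a quantile-quantile method, and what they deposited is a linear intensity per probe. Genome build and the origin of empty cells are not given in the sources used here. Platform annotation named 1 gene for 14411 probes, several for 247 (not used) and none for 18354. By gene identifier, 14402 matched RefSeq genes of GRCm38.p6 and 0 symbols changed. No background signal was used. Precision between arrays is limited by how many were run. Each group has 1 RNA pool, and more arrays would not change that limit.

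Groups came from sample titles. Log2 intensities of the 11169 probes with a value on high gainer arrays 1 to 4 and low gainer arrays 1, 3 and 4 were quantile normalized again, because the deposited arrays did not share 1 distribution, and compared with limma 3.58.1 in R 4.3.3 (lmFit, eBayes with trend), with Benjamini-Hochberg adjustment at 0.05. Genes with several probes were represented by the brightest. Named genes were all receptors at issue, all ligands, same-family receptors with a value on all 7 arrays, and up to 6 genes with the smallest p of each other list. Mc2r, Hcrtr1, Jak2, Stat3, Mbp, Mag, Mog, Hba-a1, Ttr, Lhb, Tshb, Tbx19, Neurod6, Drd2 and Lef1 were named after their values were seen. Receptors, lists and the exclusion of low gainer array 2 were chosen with earlier results of these data known. Alternatives were median centring, cyclic loess, no further normalization, a pseudocount, the brightest 50% of probes, at least 2 values per pool, all 8 arrays, no trend, array weights, the replicate number as a block, the methods' t-test and leaving out each array.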

Additional observations from a re-analysis of the deposited data

Results flagged for a closer look

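Lepr, Ghsr, Hcrtr2 and Mc3r had a value on low gainer array 2, which the comparison did not use, and on no other array. Whether the column of that array is in register with the probe names was not settled, and these values are not read as levels of the genes listed. The intensities were 18.1 for Lepr, 5.27 for Ghsr, 1.40 for Hcrtr2 and 0.730 for Mc3r.

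In groups of 4 arrays, 1 array lay far from the other 3 in 4 of the 28 groups of values looked at, where chance gives about 1 in 20. Of the 4, 3 were on low gainer array 2, namely Hcrt at 32.0 with the others between 1.65 and 2.56, Il6st at 19.2 with the others between 5.93 and 7.51, and Leprotl1 at 16.3 with the others between 0.458 and 1.07. The fourth was Socs3 at 0.759 on high gainer array 4, with the other high gainer arrays between 0.558 and 0.568. No receptor named at the outset was among them.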

How the results depend on the processing

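No receptor was called under any of the 18 alternatives. The log2 difference of Npy2r lay between 0.01 and 0.11 in the 11 alternatives that kept or added arrays, and was 0.11 with the replicate block. Leaving out 1 array in turn gave -0.093 to 0.16, with the sign turned without high gainer array 3 (-0.049), high gainer array 4 (-0.052) or low gainer array 4 (-0.093). Over all alternatives its adjusted p by limma or the methods' t-test was 0.912 to 0.999 and its interval stayed within -0.59 to 0.67. Npy2r was the 1 receptor tested in each, so the median of the receptors tested is its value. With all 8 arrays 1 receptor again had a value throughout. Its mean percentile over the 7 arrays was 55.2 when ranked among probes with a value on all of them.

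The number of probes called over the whole array, 3, was 1 with the brightest 50% of probes, 1 with all 8 arrays, 9 with the replicate block and 0 after adjustment by the methods' t-test, against 3 by limma. Unadjusted, 477 probes had a p under 0.05 by that test and 724 by limma, and 19 and 115 passed the methods' own threshold of p and fold. The number called by limma ran from 2 to 171 when 1 array was left out, with the 171 reached without low gainer array 1. Same-numbered arrays of the 2 pools did not deviate together (r = -0.199, 0.131 and -0.139), so the numbers were not taken as pairs.

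Markers of the tissue check aside, none of the other 16 genes named with a test was called in any of 274 refits, and the sign turned in 8, over 6 genes. With all 8 arrays the log2 difference was 0.28 for Adipor1, -0.11 for Ptpn1, 0.90 for Gnas, -0.022 for Gnao1 and -1.10 for Leprotl1. With 1 array left out, Leprotl1 ran from -0.063 (without low gainer array 1) to 0.44, and was -0.029 without low gainer array 3. Socs3 ran from -0.34 to 0.092, which was the value without low gainer array 3. Other leave-one-out ranges were -0.83 to -0.31 for Npy, -0.58 to -0.29 for Cck, -0.67 to -0.33 for Hcrt, 0.33 to 1.09 for Vipr1, 0.21 to 0.90 for Ptpn1 and 0.50 to 0.87 for Gnai2. The causes were not tested.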
